A study of Mus musculus with 12 samples.

Results

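Collagen chain genes encode the polypeptides that wind into triple helices to form the collagens of the extracellular matrix. The set was chosen with earlier results of these data known. Its rule is the name: every gene whose symbol is Col, a number, the letter a and a number. Of the 18604 genes in any of the 4 deposited tables, 40 met this rule. By class these were 11 fibrillar chains, 6 basement membrane (type IV) chains, 8 fibril-associated (FACIT) chains, 2 network-forming (type VIII) chains, 4 transmembrane chains, 4 beaded-filament (type VI) chains, 2 multiplexins and 3 others (Col7a1, Col26a1 and Col28a1). A further 4 annotated chain genes, Col10a1, Col19a1, Col6a4 and Col6a5, were not analysed here. RNA selected for poly(A) tails had been sequenced from hearts of male C57Bl/6J mice aged 12 weeks, with no genetic change named in the labels. The groups were BCAA-free TAC, control diet TAC, BCAA-free sham and control diet sham, with 3 libraries each. BCAA-free mice ate a diet from which the branched-chain amino acids (leucine, isoleucine and valine) had been left out, and control mice a diet that held them. Each diet started 4 days before surgery and went on until the heart was taken 1 week after it. TAC, transverse aortic constriction, narrows the aorta so that the left ventricle pumps against a raised pressure, and sham surgery leaves the aorta open. The labels name the tissue only as heart, give no chamber, and do not say that the 3 libraries of a group came from separate animals, so the p-values cover the spread among these samples only, and that spread may be technical in origin.

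Each collagen chain is made as a procollagen in the endoplasmic reticulum, where prolines and lysines are hydroxylated and 3 chains fold into a helix. After secretion, fibrillar procollagens are trimmed by proteases, assemble into fibrils and are crosslinked by lysyl oxidases. Type I and type III fibrils, made mainly by fibroblasts, form the interstitial scaffold of the heart, and their build-up under pressure overload is known as cardiac fibrosis. Type IV collagen forms the sheet-like networks under endothelial cells and around cardiomyocytes. FACIT collagens sit on the surface of fibrils, and the transmembrane collagens stay anchored in the plasma membrane.

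Values below are normalized reads, that is reads divided by a size factor set over all 12 libraries, whose recovered depths ran from 74206246 to 110452636 reads. Libraries are given in the order of their replicate numbers. A log2 fold change is given ± SE from limma on log2(value + 1), and a chain was said to rise or fall where its p-value, adjusted over all genes tested, was below 0.05. Some libraries stood apart within their groups. Rn7sk, a small structured nuclear RNA, had 3822, 617 and 4147 normalized reads in BCAA-free TAC hearts, 239, 213 and 859.8 in control diet TAC hearts, 259, 243 and 231 in BCAA-free sham hearts and 217, 6404 and 136 in control diet sham hearts. It was thus highest in BCAA-free TAC 1 and 3 and in control diet sham 2, and within the control diet TAC group in library 3. Collagen reads were lowest within their groups in BCAA-free TAC 2, control diet TAC 3 and control diet sham 2, so results that rest on these libraries are also given without them. These libraries were thus picked by the collagen reads themselves, so a call gained without 1 of them is a description and not independent evidence. All 11 cardiomyocyte markers and all 9 resting fibroblast markers examined were present in every library. In bulk tissue, fewer cells of a type and less RNA per cell cannot be told apart.

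As a whole, collagen chain genes took the largest share of reads in control diet TAC hearts. They made up 0.154, 0.106 and 0.156% of recovered reads in the 3 BCAA-free TAC hearts, 0.61, 0.694 and 0.347% in control diet TAC hearts, 0.0893, 0.0999 and 0.0897% in BCAA-free sham hearts and 0.181, 0.13 and 0.192% in control diet sham hearts. The control diet TAC libraries lay above every other library, the BCAA-free sham libraries below every other, and the ranges of BCAA-free TAC and control diet sham overlapped. Fibrillar and type IV chains supplied most of these reads in all groups. Their balance differed between groups: there were 0.877 ± 0.104 fibrillar reads per type IV read in BCAA-free TAC hearts, 1.69 ± 0.0871 in control diet TAC hearts, 0.484 ± 0.0257 in BCAA-free sham hearts and 0.634 ± 0.0446 in control diet sham hearts (SD, n = 3 each). No library of any group overlapped another group in this ratio, and fibrillar reads outnumbered type IV reads in the control diet TAC hearts only. With 3 libraries against 3 an exact permutation test cannot go below a p of 0.10, and none was run on these sums.

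**Figure D1:**
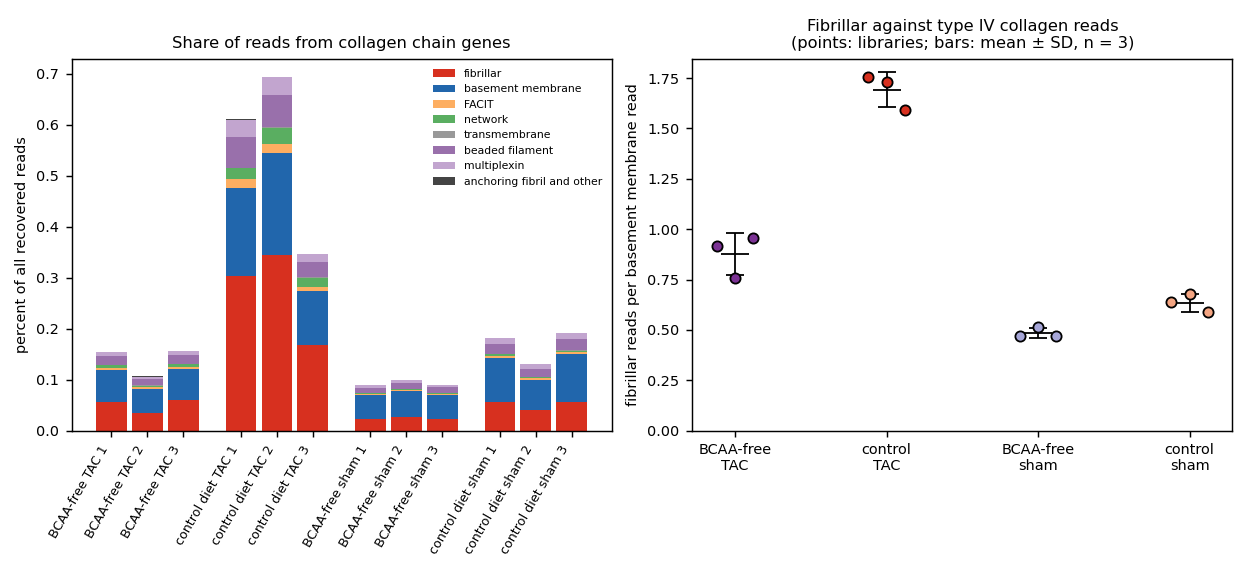
Left, share of all recovered reads (percent) from collagen chain genes in each of the 12 libraries, stacked by class. Right, fibrillar reads per basement membrane read, with points for libraries and bars for mean ± SD (n = 3). The control diet TAC libraries are highest on both axes, at 0.347 to 0.694% of reads and at ratios of 1.59 to 1.76.

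The number of chains that changed differed between comparisons. With TAC on the control diet 23 of 40 chains rose, and limma called 0 lower, as did edgeR, while DESeq2 called 1 and Col6a6 alone had an unadjusted limma p under 0.05. Among all 18305 genes tested there, 9.17% rose and 5.64% fell, and the median log2 fold change was 1.17 over the chains and -0.02 over all genes. On the BCAA-free diet TAC raised 8 of 37 chains and lowered 1, Col6a6, where 3.31% of 17611 genes rose and 4.41% fell. The median was 0.55 over the chains and 0.01 over all genes. In sham hearts 11 of 37 chains were lower on the BCAA-free than on the control diet, where 2.27% of 17862 genes were lower, with medians of -0.47 over the chains and 0.00 over all genes. In TAC hearts 23 of 40 chains were lower on the BCAA-free diet, where 10.5% of 18039 genes were lower, with medians of -1.24 over the chains and 0.02 over all genes. Among all genes 1.27% were higher on that diet in sham hearts and 6.23% in TAC hearts. No chain was higher on the BCAA-free diet in limma, edgeR or DESeq2, nor at an unadjusted limma p under 0.05, in either sham or TAC hearts. In the authors' deposited tables, which hold their own adjusted p-values, 27 chains were higher and 1 lower with TAC on the control diet, 16 higher and 1 lower with TAC on the BCAA-free diet, 18 lower for diet in sham hearts and 24 lower for diet in TAC hearts. The control diet sham libraries enter both TAC on the control diet and diet in sham hearts, and likewise each other group enters 2 of these comparisons, so they are not independent of each other. Of the chains tested, 1, 1, 1 and 2 reached the minimum mean of 10 through a single group in these comparisons, and none of those was called.

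These counts moved with single libraries in all 4 comparisons, and most for TAC on the BCAA-free diet and for diet in sham hearts. With 1 library left out, 16 to 27 chains were called with TAC on the control diet and 20 to 31 for diet in TAC hearts. For TAC on the BCAA-free diet 19 chains were called without BCAA-free TAC 2, against 4 without BCAA-free sham 1 or sham 3 and 5 without BCAA-free TAC 1 or TAC 3. In sham hearts 17 chains were called without control diet sham 2, 7 without control diet sham 1 or 3, 3 without BCAA-free sham 1 and 5 without BCAA-free sham 3. In 1 fit of all 12 libraries, whose spread includes the TAC hearts, 1 chain was called for diet in sham hearts. In every fit that left out 1 library, 15 of the 23 calls were kept with TAC on the control diet and 20 of 23 with diet in TAC hearts. The kept calls numbered 4 of 9 with TAC on the BCAA-free diet (Col12a1, Col14a1, Col16a1 and Col18a1) and 3 of 11 with diet in sham hearts (Col1a1, Col1a2 and Col5a1).

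**Figure D2:**
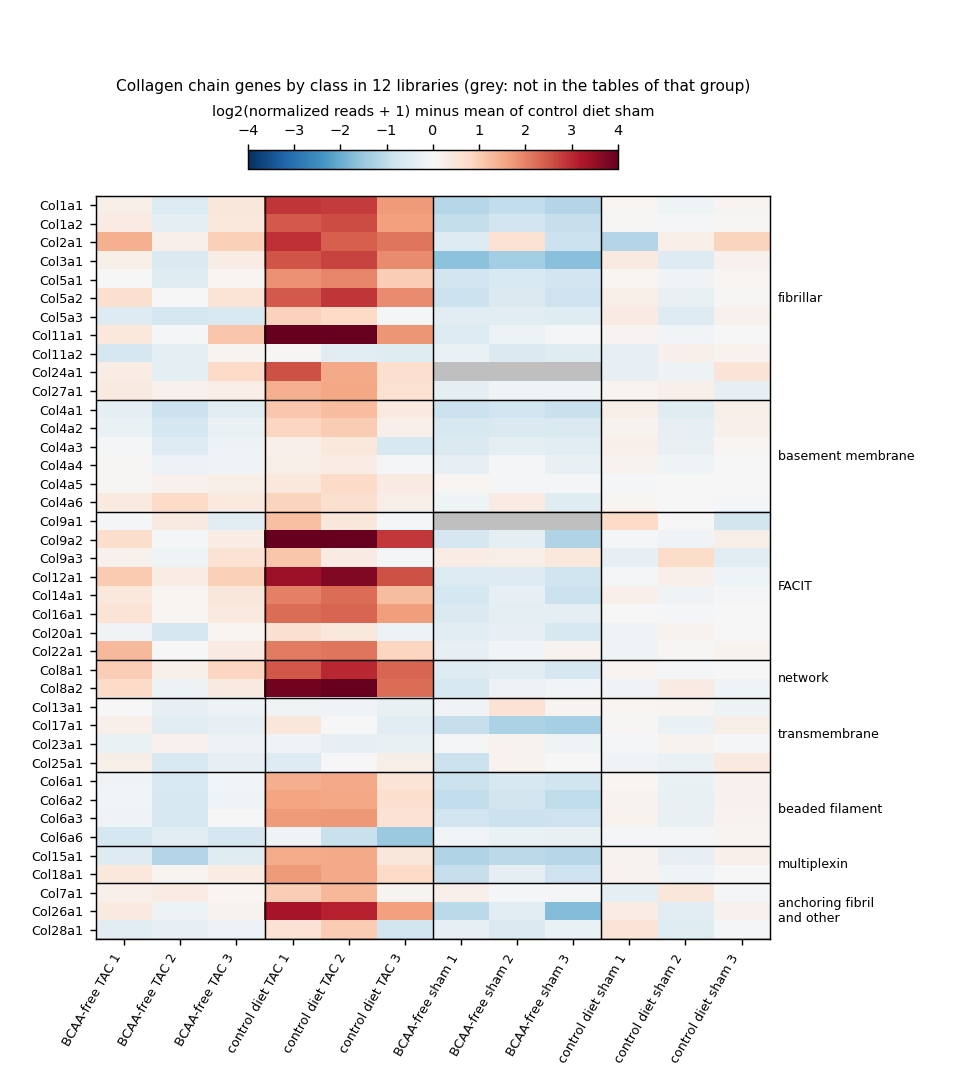
Level of each collagen chain gene (rows, by class) in the 12 libraries (columns), as log2(normalized reads + 1) minus the mean of the control diet sham libraries. Control diet TAC is farthest above control diet sham, less so in library 3, as for Col1a1 with 45198, 42951 and 19919.8 normalized reads there against 6460.5, 5443 and 6657 in control diet sham.

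Of the fibrillar chains 3 of 10 rose with TAC on the BCAA-free diet and 8 of 11 on the control diet, while 9 of 11 were lower on the BCAA-free diet in TAC hearts and 4 of 9 in sham hearts. On the BCAA-free diet edgeR and DESeq2 each called 6 fibrillar chains higher with TAC, adding Col1a1, Col1a2 and Col5a1, and limma called 0 to 6 when 1 library was left out. Type I collagen, a trimer of 2 Col1a1 chains and 1 Col1a2 chain, is the main fibre of the heart's interstitium. Col1a1 (chromosome 11, 94936224 to 94953042, GRCm38) had 7221, 4214 and 8417 normalized reads in BCAA-free TAC hearts, 45198, 42951 and 19919.8 in control diet TAC hearts, 2772, 3112 and 2761 in BCAA-free sham hearts and 6460.5, 5443 and 6657 in control diet sham hearts. The control diet TAC libraries were higher than all others, library 3 least so, and BCAA-free TAC overlapped control diet sham. Col1a2 (chromosome 6, 4504814 to 4541544) had 14143, 8878 and 15018 normalized reads in BCAA-free TAC hearts, 61431, 68807 and 35305 in control diet TAC hearts, 5787, 6664 and 5949.8 in BCAA-free sham hearts and 11574, 10607 and 11802 in control diet sham hearts. Control diet TAC was again above all other libraries, and BCAA-free TAC overlapped control diet sham. With TAC on the control diet Col1a1 rose by 2.45 ± 0.27 (adjusted p = 0.000955) and Col1a2 by 2.22 ± 0.22 (adjusted p = 0.000629). After TAC on the BCAA-free diet the values were 1.14 ± 0.29 (adjusted p = 0.102) and 1.01 ± 0.22 (adjusted p = 0.0696), and both passed without BCAA-free TAC 2 (adjusted p = 1.82e-06 for Col1a1 and 1.82e-06 for Col1a2). Neither passed in any other fit without 1 library (adjusted p up to 0.249 for Col1a1 and 0.194 for Col1a2). On the BCAA-free diet Col1a1 was lower in sham hearts at -1.10 ± 0.08 (adjusted p = 0.000673) and in TAC hearts at -2.41 ± 0.34 (adjusted p = 0.00233). Col1a2 was likewise lower in sham hearts, at -0.89 ± 0.07 (adjusted p = 0.000673), and in TAC hearts, at -2.10 ± 0.26 (adjusted p = 0.00129). In the joint fit of 12 libraries neither sham difference passed (adjusted p = 0.126 for Col1a1 and 0.0944 for Col1a2).

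Type III collagen, a trimer of Col3a1 chains that assembles into fibrils with type I, had the highest level of the fibrillar chains per kb of exon in all 4 groups. Col3a1 (chromosome 1, 45311538 to 45349706) had 20368, 11562 and 20884 normalized reads in BCAA-free TAC hearts, 97910.1, 111133 and 63362 in control diet TAC hearts, 5551, 6742 and 5358 in BCAA-free sham hearts and 21872, 11880.2 and 19368 in control diet sham hearts. Again control diet TAC stood above all other libraries, and the BCAA-free TAC range overlapped the control diet sham range. It rose with TAC on both diets, by 1.53 ± 0.28 (adjusted p = 0.0497) on the BCAA-free diet and by 2.36 ± 0.26 (adjusted p = 0.000894) on the control diet. The first of these calls was lost without any 1 of BCAA-free TAC 1 or 3 or BCAA-free sham 1, 2 or 3 (adjusted p from 0.107 to 0.153). In TAC hearts it was lower on the BCAA-free diet, at -2.37 ± 0.26 (adjusted p = 0.000579), and in sham hearts the value was -1.55 ± 0.26 (adjusted p = 0.0517), which passed without control diet sham 2 (adjusted p = 8.97e-05). Per kb, BCAA-free TAC hearts held 1.79 ± 0.119 Col3a1 reads per Col1a1 read, control diet TAC hearts 1.77 ± 0.341, BCAA-free sham hearts 1.36 ± 0.0783 and control diet sham hearts 1.89 ± 0.405 (SD, n = 3 each).

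The start regions of Col1a2 and Col3a1 are shown because both chains rose together while their letters differ widely. Each is the window from 250 bases before to 50 after the gene's start as RefSeq gives it in GRCm38.p6, 5′ to 3′, and capitals mark CCAAT or its reverse complement ATTGG, the core of a common promoter box. The Col1a2 window lies at chr6:4505368-4505667, plus strand, and the Col3a1 window at chr1:45311288-45311587, plus strand. The RefSeq start of Col1a2 lies at base 4505618, 804 bases inside the gene span given above, which comes from GENCODE, and the start of Col3a1 is the same in both.
Col1a2: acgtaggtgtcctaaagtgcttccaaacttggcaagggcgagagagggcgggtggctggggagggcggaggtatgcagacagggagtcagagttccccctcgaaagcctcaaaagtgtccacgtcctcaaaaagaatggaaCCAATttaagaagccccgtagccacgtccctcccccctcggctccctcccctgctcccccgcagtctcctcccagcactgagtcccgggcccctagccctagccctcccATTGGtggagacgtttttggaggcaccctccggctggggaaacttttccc
Col3a1: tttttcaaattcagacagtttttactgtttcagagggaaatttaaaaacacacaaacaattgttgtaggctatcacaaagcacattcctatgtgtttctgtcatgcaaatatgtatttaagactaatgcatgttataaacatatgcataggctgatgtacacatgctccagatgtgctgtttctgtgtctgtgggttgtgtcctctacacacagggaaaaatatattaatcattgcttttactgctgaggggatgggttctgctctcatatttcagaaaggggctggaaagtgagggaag
Bases G and C made up 61% of the Col1a2 window and 37.7% of the Col3a1 window. The Col1a2 window held CCAAT on the plus strand from base -109 and on the minus strand at base 1, counted from the RefSeq start, and the Col3a1 window held neither.

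The type V chains seed type I fibrils and set their width. Col5a1 had 4206, 2942 and 4385 normalized reads in BCAA-free TAC hearts, 14636, 16188 and 8203 in control diet TAC hearts, 2443, 2701 and 2435 in BCAA-free sham hearts and 4340.4, 3758 and 4392 in control diet sham hearts. Col5a2 had 4807, 3170.5 and 4516 normalized reads in BCAA-free TAC hearts, 16944, 22596 and 11541 in control diet TAC hearts, 1716, 2084 and 1742 in BCAA-free sham hearts and 3651, 2545 and 3221 in control diet sham hearts. Both were highest in all 3 control diet TAC libraries, and in both BCAA-free TAC overlapped control diet sham. Col5a1 rose with TAC on the control diet by 1.58 ± 0.22 (adjusted p = 0.00291), and on the BCAA-free diet its value was 0.58 ± 0.15 (adjusted p = 0.0675), which passed without BCAA-free TAC 2 (adjusted p = 8.01e-05). Col5a2 rose on both diets, by 1.15 ± 0.17 (adjusted p = 0.0146) on the BCAA-free diet and by 2.39 ± 0.23 (adjusted p = 0.000532) on the control diet. The call for Col5a2 on the BCAA-free diet was lost without BCAA-free sham 1 or 3 (adjusted p = 0.0632 and 0.0574). Col5a1 was lower on that diet in sham hearts (-0.72 ± 0.07, adjusted p = 0.00263) and in TAC hearts (-1.71 ± 0.25, adjusted p = 0.00233). For Col5a2 the values were -0.76 ± 0.13 (adjusted p = 0.0285) in sham hearts, a call lost in 3 of the 6 fits without 1 library (adjusted p from 0.103 to 0.116), and -1.99 ± 0.23 (adjusted p = 0.000857) in TAC hearts. Col5a3, the third type V chain, averaged 1826 ± 103 normalized reads in BCAA-free TAC hearts, 4231 ± 1353 in control diet TAC hearts, 2023 ± 33 in BCAA-free sham hearts and 2848 ± 813 in control diet sham hearts (SD, n = 3 each). It was lower on the BCAA-free diet in TAC hearts, at -1.15 ± 0.21 (adjusted p = 0.00616). Per kb, Col5a1 stood at 1.04 ± 0.0544 reads per Col5a2 read in BCAA-free TAC hearts, 0.863 ± 0.098 in control diet TAC hearts, 1.55 ± 0.0766 in BCAA-free sham hearts and 1.52 ± 0.164 in control diet sham hearts (SD, n = 3 each). The libraries of the TAC groups thus lay below those of the sham groups in this ratio on both diets.

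Among the scarcer fibrillar chains, Col11a1, a chain of type XI collagen best known from cartilage, had 27.1, 19.4 and 44.4 normalized reads in BCAA-free TAC hearts, 388, 583 and 69.6 in control diet TAC hearts, 13.2, 16.9 and 19 in BCAA-free sham hearts and 21.4, 18.2 and 20.1 in control diet sham hearts. Control diet TAC 1 and 2 were far above all other libraries, library 3 stood between them and the rest, and BCAA-free TAC overlapped control diet sham but not BCAA-free sham. It rose with TAC on the control diet by 3.59 ± 0.65 (adjusted p = 0.0081), and the value on the BCAA-free diet was 0.78 ± 0.37 (adjusted p = 0.227). In TAC hearts it was lower on the BCAA-free diet at -3.08 ± 0.69 (adjusted p = 0.0179), a call lost without control diet TAC 1, BCAA-free TAC 1 or BCAA-free TAC 2 (adjusted p from 0.053 to 0.0622). In sham hearts its value was -0.28 ± 0.31 (adjusted p = 0.672). Col2a1, the chain of type II collagen, the main fibre of cartilage, rose by 2.49 ± 0.52 (adjusted p = 0.0142) with TAC on the control diet, at few reads (49.2 ± 14.2 in control diet TAC hearts and 9.27 ± 6.17 in control diet sham hearts, SD, n = 3 each). It was lower on the BCAA-free diet in TAC hearts at -1.61 ± 0.38 (adjusted p = 0.0194), a call lost in 3 of the 6 fits without 1 library. The call with TAC was lost without control diet TAC 1 (adjusted p = 0.0678). Col27a1 rose with TAC on both diets, by 0.49 ± 0.11 (adjusted p = 0.0194) on the BCAA-free diet and 1.18 ± 0.24 (adjusted p = 0.0134) on the control diet, and was lower on the BCAA-free diet in TAC hearts at -0.92 ± 0.22 (adjusted p = 0.0187). These calls were lost in 4 of the 6 fits without 1 library on the BCAA-free diet, 2 of the 6 on the control diet and 5 of the 6 for diet in TAC hearts (adjusted p from 0.0501 to 0.0842). Limma and edgeR called neither Col11a2 nor Col24a1 in any comparison, and DESeq2 called Col24a1 higher with TAC on the control diet (1.83, adjusted p = 0.0262). Markers of cartilage and valve tissue summed to 360.0 to 418 normalized reads in BCAA-free TAC hearts, 519 to 764 in control diet TAC hearts, 269 to 482 in BCAA-free sham hearts and 325 to 512 in control diet sham hearts. Of these 5 genes 2 rose and none fell with TAC on the control diet, but the median log2 fold change over the 5 was -0.21. None was at 0 in any library, and their part in the result was not tested.

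**Figure D3:**
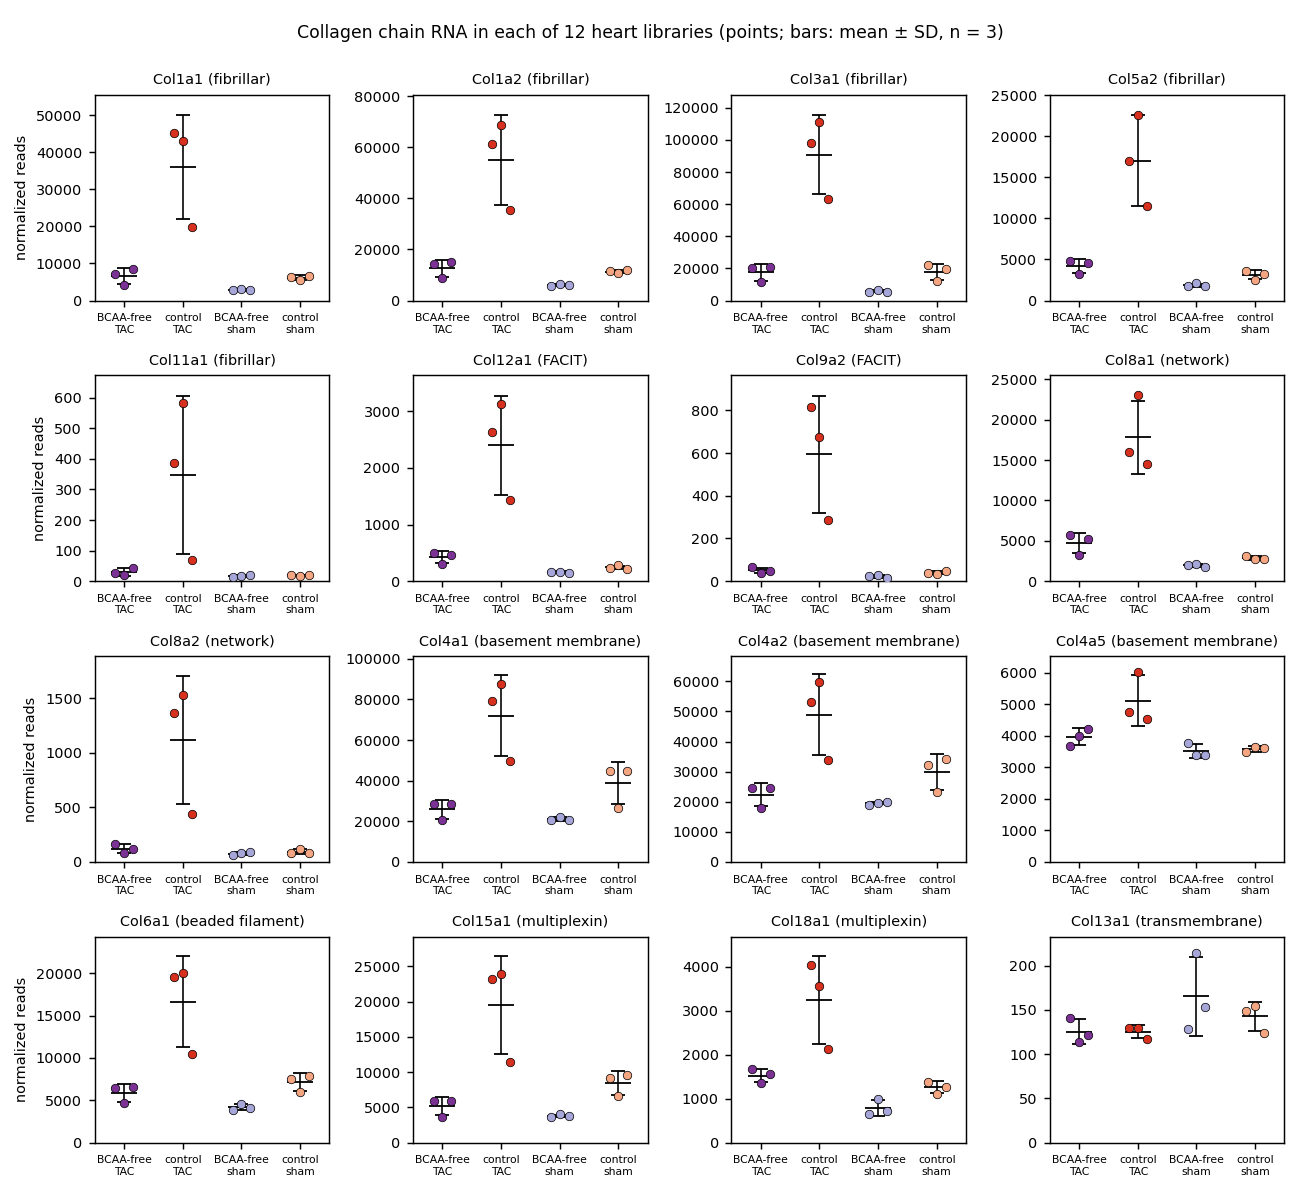
Normalized reads (y axes, from 0) of 16 collagen chain genes in each of the 12 libraries, with points for libraries and bars for mean ± SD (n = 3), in groups BCAA-free TAC, control diet TAC, BCAA-free sham and control diet sham from left to right. Control diet TAC has the highest mean in every panel but that of Col13a1, where all 4 groups overlap.

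Log2 fold changes of the 6 type IV chains with TAC ran from 0.11 to 0.62 on the BCAA-free diet and from -0.01 to 0.89 on the control diet, where those of the fibrillar chains ran from -0.15 to 1.53 and from -0.30 to 3.59. Col4a1 and Col4a2, whose trimer is found in nearly all basement membranes, were the 2 chains with the most reads per kb in 3 of the 4 groups, and Col3a1 came between them in control diet TAC hearts. Col4a1 had 28736, 20623 and 28383 normalized reads in BCAA-free TAC hearts, 79015, 87682 and 49459 in control diet TAC hearts, 20641, 22307 and 20454 in BCAA-free sham hearts and 44584, 26746 and 44644 in control diet sham hearts. Col4a2 had 24597, 17952 and 24592 normalized reads in BCAA-free TAC hearts, 53075, 59806 and 33898 in control diet TAC hearts, 19015, 19728 and 19847 in BCAA-free sham hearts and 32146, 23244 and 34219.6 in control diet sham hearts. In Col4a1 the control diet TAC libraries were above all others, and in Col4a2 control diet TAC 3 lay just below control diet sham 3. The BCAA-free TAC range overlapped both sham ranges in each chain. With TAC on the control diet Col4a1 rose by 0.89 ± 0.25 (adjusted p = 0.0461), and Col4a2 had 0.68 ± 0.22 (adjusted p = 0.0716). The Col4a1 call was lost without any of the 6 libraries other than control diet TAC 3 (adjusted p from 0.0712 to 0.153), and Col4a2 passed without that library (adjusted p = 0.00818). On the BCAA-free diet TAC gave 0.27 ± 0.12 (adjusted p = 0.241) for Col4a1 and 0.18 ± 0.12 (adjusted p = 0.421) for Col4a2, and both passed without BCAA-free TAC 2 (adjusted p = 0.00148 and 0.00519). In TAC hearts both were lower on the BCAA-free diet, Col4a1 at -1.44 ± 0.21 (adjusted p = 0.00228) and Col4a2 at -1.10 ± 0.21 (adjusted p = 0.00724). In sham hearts the values were -0.83 ± 0.21 (adjusted p = 0.11) and -0.59 ± 0.13 (adjusted p = 0.0605), and both passed without control diet sham 2 (adjusted p = 8.97e-05 and 0.000358).

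Col4a1 and Col4a2 are neighbours on chromosome 8 that are read away from each other, with first bases 21 apart in the annotation, and the first bases of the pairs Col4a3 and Col4a4 (chromosome 1) and Col4a5 and Col4a6 (chromosome X) lie 72 and 1309 bases apart. The start regions of Col4a1 (chr8:11312777-11313076, minus strand) and Col4a2 (chr8:11312555-11312854, plus strand) are shown because they overlap by 78 bases. The genes themselves share their first 22 bases, so each window also covers the start of the other gene. They are the same RefSeq windows as above, with CCAAT or ATTGG in capitals.
Col4a1: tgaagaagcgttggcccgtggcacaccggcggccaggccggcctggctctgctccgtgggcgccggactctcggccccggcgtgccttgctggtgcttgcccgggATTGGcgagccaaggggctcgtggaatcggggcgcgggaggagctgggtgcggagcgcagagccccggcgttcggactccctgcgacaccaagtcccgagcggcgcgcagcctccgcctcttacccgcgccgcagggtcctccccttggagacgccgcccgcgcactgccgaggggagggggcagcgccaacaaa
Col4a2: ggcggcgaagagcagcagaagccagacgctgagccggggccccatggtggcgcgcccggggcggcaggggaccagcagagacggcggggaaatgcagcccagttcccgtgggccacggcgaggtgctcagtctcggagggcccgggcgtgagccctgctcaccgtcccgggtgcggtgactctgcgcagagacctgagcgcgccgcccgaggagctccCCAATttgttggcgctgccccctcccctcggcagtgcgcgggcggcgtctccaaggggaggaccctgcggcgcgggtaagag
Each window held 1 such match, read along the window as printed: ATTGG from base -145 in Col4a1 and CCAAT from base -32 in Col4a2. Per kb, Col4a1 stood at 1.03 ± 0.00893 reads per Col4a2 read in BCAA-free TAC hearts, 1.3 ± 0.0138 in control diet TAC hearts, 0.96 ± 0.0445 in BCAA-free sham hearts and 1.14 ± 0.106 in control diet sham hearts (SD, n = 3 each). The 3 control diet TAC libraries, at 1.29 to 1.32, lay above those of every other group. Reads of the overlapping first bases cannot be assigned to either gene where the counting did not use strand.

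Among the scarcer type IV chains Col4a5, which forms trimers with Col4a3 and Col4a4 in the kidney's filter and with Col4a6 elsewhere, had 3688, 4005 and 4217 normalized reads in BCAA-free TAC hearts, 4771, 6033 and 4533 in control diet TAC hearts, 3767, 3381 and 3403 in BCAA-free sham hearts and 3487, 3643 and 3628 in control diet sham hearts. Both TAC groups were above control diet sham, and BCAA-free TAC 1 lay within the BCAA-free sham range. It rose with TAC on the control diet by 0.49 ± 0.12 (adjusted p = 0.0235), which held in 1 of the 6 fits without 1 library (without control diet TAC 3), with adjusted p from 0.0536 to 0.088 in the others. TAC on the BCAA-free diet gave 0.17 ± 0.07 (adjusted p = 0.154), and the diet difference was -0.03 ± 0.06 (adjusted p = 0.826) in sham hearts and -0.35 ± 0.12 (adjusted p = 0.0767) in TAC hearts. Col4a3 averaged 374 ± 59.4 normalized reads in BCAA-free TAC hearts, 467 ± 161 in control diet TAC hearts, 327 ± 24.3 in BCAA-free sham hearts and 451 ± 76.7 in control diet sham hearts (SD, n = 3 each). Its log2 values were 0.18 ± 0.14 with TAC on the BCAA-free diet, -0.01 ± 0.26 with TAC on the control diet, -0.26 ± 0.25 for diet in TAC hearts and -0.45 ± 0.14 for diet in sham hearts. Col4a4 had 0.11 ± 0.11, 0.15 ± 0.13, -0.26 ± 0.13 and -0.23 ± 0.11 in the same order. Col4a6 averaged 269 ± 39.9 normalized reads in BCAA-free TAC hearts, 287 ± 64.3 in control diet TAC hearts, 178 ± 50.9 in BCAA-free sham hearts and 187 ± 7.85 in control diet sham hearts (SD, n = 3 each). Limma and edgeR did not call Col4a6, while DESeq2 called it higher with TAC on the BCAA-free diet (0.59, adjusted p = 0.0383) and on the control diet (0.60, adjusted p = 0.021). Neither Col4a3 nor Col4a4 passed in limma in any of these (adjusted p from 0.103 to 0.981), and the direction of Col4a3 with TAC on the control diet turned with the count tests. In all, 2 of 6 type IV chains rose with TAC on the control diet and 2 were lower on the BCAA-free diet in TAC hearts. For TAC on the BCAA-free diet limma called 0 of 6, edgeR 0 and DESeq2 2, and 2 had an unadjusted limma p under 0.05. For diet in sham hearts limma called 0 of 6, edgeR 2 and DESeq2 3, and 3 had an unadjusted limma p under 0.05.

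The FACIT chains, which bind to fibrils without forming them, split into chains with some of the largest changes and chains that limma did not call. Col12a1, which coats type I fibrils under load in tendon and muscle, had 500.0, 299.5 and 469 normalized reads in BCAA-free TAC hearts, 2631, 3135 and 1427 in control diet TAC hearts, 166, 171 and 140.3 in BCAA-free sham hearts and 237, 279 and 215 in control diet sham hearts. The groups did not overlap in any pair, in the order control diet TAC, BCAA-free TAC, control diet sham and BCAA-free sham. It rose with TAC by 1.37 ± 0.18 (adjusted p = 0.00138) on the BCAA-free diet and by 3.22 ± 0.25 (adjusted p = 0.000289) on the control diet, and both calls held without any 1 library. It was lower on the BCAA-free diet in TAC hearts at -2.45 ± 0.29 (adjusted p = 0.000982), and the value in sham hearts was -0.61 ± 0.15 (adjusted p = 0.057). Col14a1, a related chain that limits fibril fusion, had 1585, 1242 and 1618 normalized reads in BCAA-free TAC hearts, 4726, 5506 and 2782 in control diet TAC hearts, 724, 943 and 646 in BCAA-free sham hearts and 1368, 1066 and 1122 in control diet sham hearts. Control diet TAC was above all other libraries, and BCAA-free TAC above BCAA-free sham. TAC raised it by 0.94 ± 0.15 (adjusted p = 0.00712) on the BCAA-free diet and by 1.81 ± 0.22 (adjusted p = 0.0016) on the control diet. It was lower on the BCAA-free diet in TAC hearts (-1.49 ± 0.22, adjusted p = 0.00229), with -0.63 ± 0.15 (adjusted p = 0.0517) in sham hearts. Col16a1, a FACIT chain made by fibroblasts and smooth muscle, had 1232, 897 and 1109.5 normalized reads in BCAA-free TAC hearts, 4003, 4295 and 2699 in control diet TAC hearts, 566, 663 and 660.0 in BCAA-free sham hearts and 868, 818 and 866 in control diet sham hearts. Its 4 groups did not overlap in any pair, in the same order as for Col12a1. It rose by 0.76 ± 0.12 (adjusted p = 0.00248) with TAC on the BCAA-free diet and by 2.07 ± 0.16 (adjusted p = 0.000289) with TAC on the control diet. It was lower on the BCAA-free diet in sham hearts (-0.44 ± 0.09, adjusted p = 0.0333) and in TAC hearts (-1.74 ± 0.18, adjusted p = 0.0005), and the call in sham hearts was lost without any 1 library other than control diet sham 2 (adjusted p from 0.0639 to 0.128).

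Col9a2, a chain of type IX collagen known from cartilage, had the largest log2 fold change of any chain with TAC on the control diet in limma, where Col11a1 came next. Col11a1 exceeded it by edgeR (4.07 against 3.85), by DESeq2 (4.11 against 3.89) and in limma without control diet TAC 3. It had 64.7, 37.6 and 48.1 normalized reads in BCAA-free TAC hearts, 816, 677 and 287 in control diet TAC hearts, 24.4, 30.2 and 16.4 in BCAA-free sham hearts and 37, 35.4 and 46.5 in control diet sham hearts. The control diet TAC libraries were far above all others, and BCAA-free TAC overlapped control diet sham. The rise was 3.74 ± 0.35 (adjusted p = 0.000532) on the control diet, and the value on the BCAA-free diet was 1.05 ± 0.32 (adjusted p = 0.0632). In TAC hearts it was lower on the BCAA-free diet at -3.43 ± 0.36 (adjusted p = 0.00054), and in sham hearts the value was -0.75 ± 0.30 (adjusted p = 0.194). Of the other type IX chains, Col9a3 averaged 31.7 ± 8.46, 40.2 ± 17.7, 34.1 ± 2.37 and 29.2 ± 14.6 normalized reads in BCAA-free TAC, control diet TAC, BCAA-free sham and control diet sham hearts (SD, n = 3 each). Col9a1 averaged 8.6 ± 2.63 normalized reads in BCAA-free TAC hearts, 14 ± 6.72 in control diet TAC hearts and 9.66 ± 5.47 in control diet sham hearts (SD, n = 3 each), and it was not in the tables that hold BCAA-free sham. Neither was called in any comparison by limma, edgeR or DESeq2. Col22a1, known from muscle-tendon junctions, rose by 1.68 ± 0.33 (adjusted p = 0.0107) with TAC on the control diet, which was lost without control diet TAC 1 (adjusted p = 0.052). Col20a1, another FACIT chain, was likewise called by none of these tools. In all 5 of 8 FACIT chains rose with TAC on the control diet and 3 of 7 on the BCAA-free diet. On the BCAA-free diet 4 of 8 were lower in TAC hearts and 1 of 7 in sham hearts.

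Both type VIII chains, which form hexagonal nets in vessel walls and under endothelium, rose with TAC on the control diet. Col8a1 had 5708, 3272 and 5162 normalized reads in BCAA-free TAC hearts, 15935, 22992 and 14518 in control diet TAC hearts, 2019, 2127 and 1789 in BCAA-free sham hearts and 3118, 2687 and 2806 in control diet sham hearts. Here the control diet TAC libraries were highest, all 3 BCAA-free TAC libraries were above both sham groups, and control diet sham was above BCAA-free sham. Col8a1 rose by 1.21 ± 0.23 (adjusted p = 0.0468) with TAC on the BCAA-free diet and by 2.60 ± 0.16 (adjusted p = 8.58e-05) on the control diet. The first call was lost without any 1 library other than BCAA-free TAC 2 (adjusted p from 0.0892 to 0.14). It was also lower on the BCAA-free diet in sham hearts (-0.54 ± 0.08, adjusted p = 0.0102) and in TAC hearts (-1.92 ± 0.22, adjusted p = 0.000772), and the call in sham hearts was lost without BCAA-free sham 1 (adjusted p = 0.065). Col8a2 had 160.0, 80.9 and 119.7 normalized reads in BCAA-free TAC hearts, 1367, 1527 and 442 in control diet TAC hearts, 60, 79.2 and 86 in BCAA-free sham hearts and 84.8, 117 and 82.6 in control diet sham hearts. Control diet TAC stood above all others, with library 3 lowest of them, and the other 3 groups overlapped. It rose by 3.36 ± 0.41 (adjusted p = 0.00149) on the control diet, with 0.63 ± 0.25 (adjusted p = 0.154) on the BCAA-free diet, which passed without BCAA-free TAC 2 (adjusted p = 0.0462). It was lower on the BCAA-free diet in TAC hearts, at -3.05 ± 0.44 (adjusted p = 0.00277), with -0.33 ± 0.22 (adjusted p = 0.448) in sham hearts.

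Transmembrane chains were the class without a call in limma. Col13a1, a muscle collagen that helps hold the neuromuscular junction, had 141, 114 and 121 normalized reads in BCAA-free TAC hearts, 129.5, 129 and 116 in control diet TAC hearts, 128, 214 and 153 in BCAA-free sham hearts and 149, 154 and 124 in control diet sham hearts. All 4 groups overlapped. Col23a1 had 158, 215 and 167 normalized reads in BCAA-free TAC hearts, 172, 152 and 156 in control diet TAC hearts, 182, 209 and 169 in BCAA-free sham hearts and 182, 209 and 182 in control diet sham hearts. Here too the groups overlapped, apart from control diet TAC, whose 3 libraries lay below those of control diet sham. Log2 values of Col13a1 were -0.37 ± 0.20 with TAC on the BCAA-free diet, -0.19 ± 0.18 with TAC on the control diet, 0.00 ± 0.18 for diet in TAC hearts and 0.18 ± 0.20 for diet in sham hearts. Col23a1 had -0.07 ± 0.17, -0.27 ± 0.16, 0.16 ± 0.18 and -0.04 ± 0.15 in the same order. Limma, edgeR and DESeq2 each called 0 of the 3 or 4 transmembrane chains tested in each of the 5 comparisons, and 1 value, that of Col17a1 (a skin adhesion chain) for diet in sham hearts, had an unadjusted limma p under 0.05. These chains had few reads, with means of 5.84 to 191 normalized reads over the groups.

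Type VI collagen forms beaded microfibrils from Col6a1, Col6a2 and a further chain, mostly Col6a3. Col6a1 had 6431, 4630.5 and 6579 normalized reads in BCAA-free TAC hearts, 19522, 20037 and 10434 in control diet TAC hearts, 3859, 4569 and 4046 in BCAA-free sham hearts and 7507, 5938 and 7923 in control diet sham hearts. Control diet TAC was highest, BCAA-free TAC overlapped control diet sham, and BCAA-free sham was lowest. Col6a2 averaged 5443 ± 1033 normalized reads in BCAA-free TAC hearts, 16596 ± 5103 in control diet TAC hearts, 3557 ± 391 in BCAA-free sham hearts and 6731 ± 1183 in control diet sham hearts (SD, n = 3 each). Col6a3 averaged 2331 ± 499.6, 7418 ± 2899, 1565 ± 63.3 and 2775 ± 446 in the same order. All 3 rose with TAC on the control diet, Col6a1 by 1.17 ± 0.23 (adjusted p = 0.012), Col6a2 by 1.25 ± 0.23 (adjusted p = 0.00835) and Col6a3 by 1.33 ± 0.28 (adjusted p = 0.0163). The calls of Col6a1 and Col6a3 were lost without control diet TAC 1 or control diet sham 2, and that of Col6a3 also without control diet TAC 2 (adjusted p from 0.0513 to 0.0659). On the BCAA-free diet TAC gave 0.48 ± 0.14 (adjusted p = 0.0968), 0.59 ± 0.15 (adjusted p = 0.0729) and 0.55 ± 0.15 (adjusted p = 0.0701), and all 3 passed without BCAA-free TAC 2 (adjusted p = 0.000436, 0.000304 and 0.000192). All 3 were lower on the BCAA-free diet in sham hearts, Col6a1 at -0.77 ± 0.11 (adjusted p = 0.0128), Col6a2 at -0.91 ± 0.14 (adjusted p = 0.0216) and Col6a3 at -0.82 ± 0.11 (adjusted p = 0.00824). The sham calls were lost in 3 of the 6 fits without 1 library for Col6a1, 4 of the 6 for Col6a2 and 1 of the 6 for Col6a3 (adjusted p from 0.0555 to 0.0929). In TAC hearts they were lower at -1.45 ± 0.24 (adjusted p = 0.0042), -1.57 ± 0.23 (adjusted p = 0.00226) and -1.59 ± 0.30 (adjusted p = 0.00834) in the same order. Col6a6, an alternative to Col6a3, had 494, 586 and 504 normalized reads in BCAA-free TAC hearts, 715, 440.2 and 289 in control diet TAC hearts, 749, 680.5 and 664 in BCAA-free sham hearts and 789, 767 and 878 in control diet sham hearts. BCAA-free TAC lay below both sham groups, and the control diet TAC libraries, which were widely spread, lay below control diet sham but overlapped BCAA-free sham. Its value with TAC on the control diet was -0.86 ± 0.27 (adjusted p = 0.0662), which DESeq2 called lower (-0.76, adjusted p = 0.0247), as did limma without control diet TAC 1 (adjusted p = 0.0166). It fell with TAC on the BCAA-free diet at -0.41 ± 0.10 (adjusted p = 0.0321), a call lost without any 1 library other than BCAA-free TAC 2 (adjusted p from 0.0735 to 0.12). Fitted over all 4 groups together, the value on the control diet passed (adjusted p = 0.0156) and the value on the BCAA-free diet did not (adjusted p = 0.448). The difference between these responses was 0.45 ± 0.32 (adjusted p = 0.57).

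The multiplexins Col15a1 and Col18a1 are basement membrane proteoglycans of capillaries and muscle, and the end piece of Col18a1 is endostatin. Col15a1 had 5877, 3676 and 5923 normalized reads in BCAA-free TAC hearts, 23155, 23856 and 11489.8 in control diet TAC hearts, 3649, 3986 and 3789 in BCAA-free sham hearts and 9144, 6574 and 9645 in control diet sham hearts. Control diet TAC was above all others, and BCAA-free TAC was below control diet sham and overlapped BCAA-free sham. Col18a1 had 1667, 1357 and 1553 normalized reads in BCAA-free TAC hearts, 4039, 3574 and 2132 in control diet TAC hearts, 653, 985 and 711 in BCAA-free sham hearts and 1386, 1115 and 1263 in control diet sham hearts. In this chain BCAA-free TAC overlapped control diet sham, and BCAA-free sham was lowest. On the control diet TAC raised Col15a1 by 1.14 ± 0.27 (adjusted p = 0.0219) and Col18a1 by 1.32 ± 0.21 (adjusted p = 0.00482). The Col15a1 call was lost without control diet TAC 1 or 2 or control diet sham 1 or 2 (adjusted p from 0.0634 to 0.092). Col18a1 also rose on the BCAA-free diet, by 0.97 ± 0.15 (adjusted p = 0.0058), and Col15a1 had 0.40 ± 0.20 (adjusted p = 0.325), which passed without BCAA-free TAC 2 (adjusted p = 0.000168). Both were lower on the BCAA-free diet in sham hearts, Col15a1 at -1.13 ± 0.14 (adjusted p = 0.0108) and Col18a1 at -0.70 ± 0.15 (adjusted p = 0.0449). Those calls were lost in 3 of the 6 fits without 1 library for Col15a1 and 4 of the 6 for Col18a1 (adjusted p from 0.0544 to 0.158). In TAC hearts the values were -1.87 ± 0.29 (adjusted p = 0.00358) for Col15a1 and -1.04 ± 0.20 (adjusted p = 0.00878) for Col18a1. Of the other 3 chains, Col26a1 had 47.1, 30.7 and 39.5 normalized reads in BCAA-free TAC hearts, 361, 316 and 112 in control diet TAC hearts, 16.3, 25.8 and 10.1 in BCAA-free sham hearts and 43.8, 25.7 and 40.1 in control diet sham hearts. Control diet TAC was again highest, and control diet sham overlapped both BCAA-free groups. Col26a1 rose with TAC on the control diet by 2.67 ± 0.42 (adjusted p = 0.00446) and was lower on the BCAA-free diet in TAC hearts at -2.57 ± 0.40 (adjusted p = 0.00292). Limma and edgeR called neither Col7a1, the chain of the skin's anchoring fibrils, nor Col28a1, while DESeq2 called Col7a1 higher with TAC on the control diet (0.85, adjusted p = 0.0332).

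**Figure D4:**
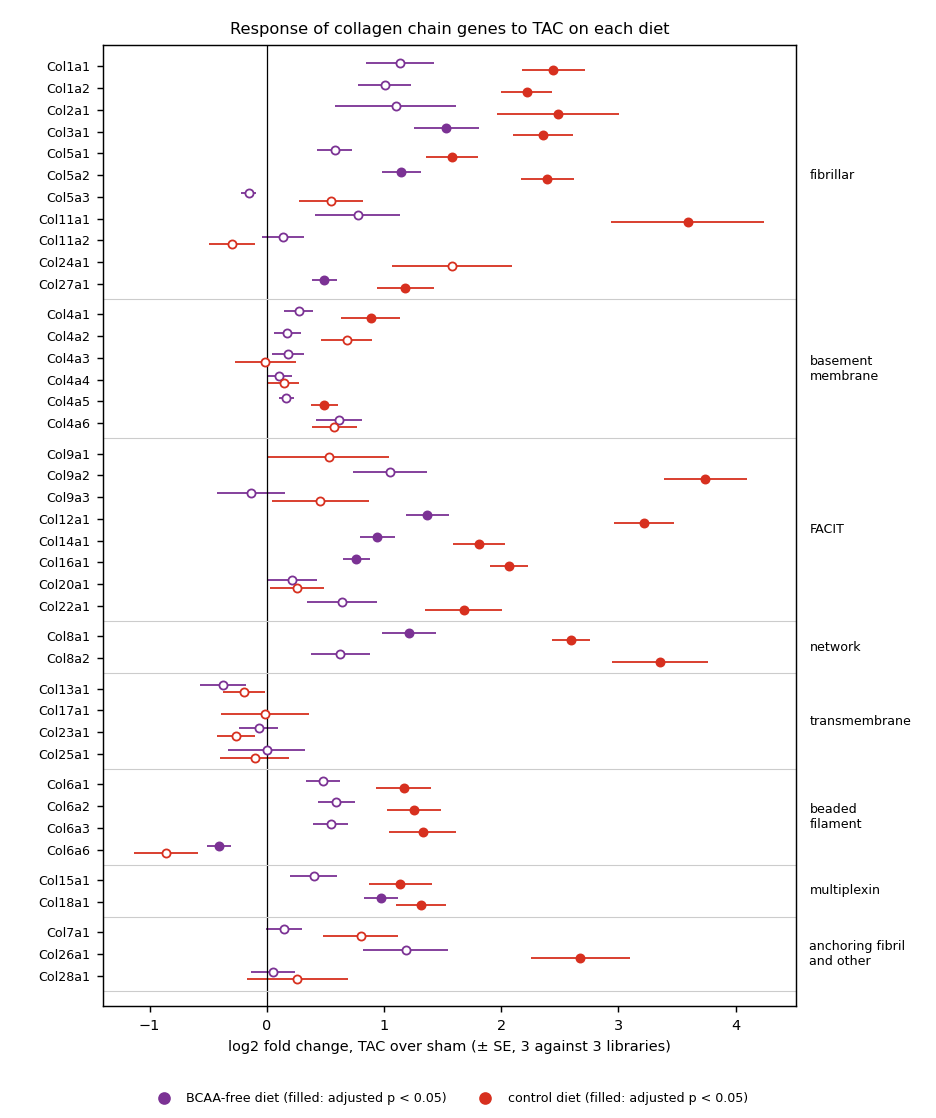
Log2 fold change of TAC over sham (x axis, ± SE, 3 against 3 libraries) for each collagen chain gene, by class from top to bottom, with the BCAA-free diet in purple above the control diet in red and filled points for adjusted p below 0.05. The red points lie farther right in most rows of the fibrillar, FACIT and network classes, with Col9a2 at 1.05 on the BCAA-free and 3.74 on the control diet.

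Whether the response to TAC differed between diets was tested as the difference of the 2 responses in 1 model of all 12 libraries. For 5 of 37 chains the response was smaller on the BCAA-free diet, where 0.503% of 17493 genes had a smaller and 0.171% a larger one. These were Col9a2, at -2.69 ± 0.49 (adjusted p = 0.0275), and Col8a2, at -2.73 ± 0.55 (adjusted p = 0.0434). The others were Col12a1, at -1.85 ± 0.35 (adjusted p = 0.0355), Col8a1, at -1.39 ± 0.27 (adjusted p = 0.0402), and Col16a1, at -1.31 ± 0.22 (adjusted p = 0.0221). Thus 3 FACIT chains and both type VIII chains passed. The median difference was -0.69 over the chains and 0.02 over all genes. None of the 10 fibrillar chains passed in limma or edgeR, while DESeq2 called 5 and 6 had an unadjusted limma p under 0.05, with Col1a1 at -1.31 ± 0.44 (adjusted p = 0.191) and Col3a1 at -0.82 ± 0.40 (adjusted p = 0.381). The 5 calls depended on single libraries, and not 1 held in every fit without 1 library: 19 chains passed without control diet TAC 3 and 5 without BCAA-free TAC 1. Between 0 and 2 passed without any 1 of the other 10 libraries, with 0 without BCAA-free TAC 2, BCAA-free TAC 3, BCAA-free sham 2, control diet sham 2 or control diet sham 3. Across the 37 chains the responses on the 2 diets, which share no library, ran in parallel (Pearson's r = 0.856 and Spearman's rho = 0.898, a description over genes that are not independent). The response was smaller in size on the BCAA-free diet for 34 of the 37.

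BCAA-free TAC and control diet sham hearts differ in both diet and surgery and were compared by ranges only. Of 38 chains with values in both, 30 overlapped, 5 were higher in all BCAA-free TAC libraries (Col4a5, Col4a6, Col8a1, Col12a1 and Col16a1) and 3 were lower (Col5a3, Col6a6 and Col15a1). Over 17710 genes, 12.2% were higher and 12.2% lower without overlap, so the chains' shares were near this background. By group means, 17 of 38 chains ran in the order control diet TAC, BCAA-free TAC, control diet sham and BCAA-free sham, and 13 in the order control diet TAC, control diet sham, BCAA-free TAC and BCAA-free sham.

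Genes that act on collagen were called in differing numbers. Among all genes tested, 9.17% rose and 5.64% fell with TAC on the control diet and 3.31% rose and 4.41% fell on the BCAA-free diet, while 10.5% were lower and 6.23% higher on the BCAA-free diet in TAC hearts and 2.27% lower in sham hearts. Of 20 genes for hydroxylation, folding and export of procollagen, 12 rose with TAC on the control diet and 2 of 19 on the BCAA-free diet, while 14 were lower on the BCAA-free diet in TAC hearts and 3 in sham hearts. P4ha3, a subunit of a prolyl hydroxylase, had 12.9, 5.69 and 12.3 normalized reads in BCAA-free TAC hearts, 215, 265 and 98.1 in control diet TAC hearts, 15.2, 16.9 and 2.53 in BCAA-free sham hearts and 9.74, 13.9 and 16.8 in control diet sham hearts. It was scarce in all but the control diet TAC hearts, where it was highest in libraries 1 and 2, and rose there by 3.65 ± 0.38 (adjusted p = 0.000751). Serpinh1, the collagen chaperone HSP47, was lower on the BCAA-free diet in sham hearts at -0.62 ± 0.06 (adjusted p = 0.00175). Of 18 genes for procollagen trimming and crosslinking, 12 rose with TAC on the control diet and 10 on the BCAA-free diet, while 11 were lower and 1 was higher on the BCAA-free diet in TAC hearts and 5 were lower in sham hearts. That list also held the proteoglycans Lum, Dcn, Bgn and Fmod. Lox, a lysyl oxidase that crosslinks collagen, rose with TAC on the control diet by 3.66 ± 0.18 (adjusted p = 2.57e-05), and its response was smaller on the BCAA-free diet at -2.18 ± 0.30 (adjusted p = 0.01). Of 17 genes of collagen breakdown or its inhibition, 6 rose and 2 fell with TAC on the control diet, 4 rose on the BCAA-free diet, 7 were lower and 2 higher on the BCAA-free diet in TAC hearts, and 2 were lower in sham hearts. These counts mix proteases with their Timp inhibitors, so they give no direction of breakdown. Timp1, an inhibitor of matrix proteases, rose on both diets, by 2.19 ± 0.27 (adjusted p = 0.00254) on the BCAA-free and 3.55 ± 0.21 (adjusted p = 6.04e-05) on the control diet. Of 11 collagen receptor genes, 2 rose with TAC on the control diet and 1 fell on the BCAA-free diet, while 2 were lower and 1 was higher on the BCAA-free diet in TAC hearts and 1 was lower in sham hearts, counts too small to be read as a difference from the shares of all genes. Of 18 regulators of collagen transcription, 10 rose with TAC on the control diet, and on the BCAA-free diet 1 rose and 1 fell. In TAC hearts 9 of them were lower on the BCAA-free diet and in sham hearts 3, among them Tgfb1, a growth factor that drives collagen genes, at -0.52 ± 0.08 (adjusted p = 0.009) in sham and -0.86 ± 0.12 (adjusted p = 0.0016) in TAC hearts. These lists were chosen with earlier results of these data known.

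Markers of several cell types differed in level between the groups along with the collagen chains, some higher and some lower in control diet TAC hearts. Activated fibroblast markers summed to 25806 to 35326 normalized reads in BCAA-free TAC hearts, 88757 to 177403 in control diet TAC hearts, 14098 to 17915 in BCAA-free sham hearts and 23399 to 26639 in control diet sham hearts. Of these 10 markers 9 rose with TAC on the control diet and 7 on the BCAA-free diet, and 9 were lower on the BCAA-free diet in TAC hearts and 4 in sham hearts. Macrophage markers summed to 27515 to 34954 in BCAA-free TAC hearts, 45716 to 47997 in control diet TAC hearts, 24045 to 27040.2 in BCAA-free sham hearts and 24443 to 32418 in control diet sham hearts, and 8 of 9 were lower on the BCAA-free diet in TAC hearts. Resting fibroblast markers summed to 111700 to 117273 in BCAA-free TAC hearts, 89303 to 104410 in control diet TAC hearts, 108261 to 112259 in BCAA-free sham hearts and 108224 to 128294 in control diet sham hearts. With TAC on the control diet 3 of 9 resting fibroblast markers rose and 2 fell. Atrial markers summed to 77453 to 117882 in BCAA-free TAC hearts, 136257 to 237382 in control diet TAC hearts, 23450.1 to 35463 in BCAA-free sham hearts and 18011 to 62246 in control diet sham hearts. The members of this list did not move as 1, as 1 of 6 rose and 1 fell with TAC on the control diet. In TAC hearts 1 of 5 was higher and 1 lower on the BCAA-free diet, with a median log2 fold change of 0.61. Cardiomyocyte markers summed to 8101080 to 8744490 in BCAA-free TAC hearts, 5609200 to 6403990 in control diet TAC hearts, 8136280 to 8764520 in BCAA-free sham hearts and 7252590 to 7929050 in control diet sham hearts. Smooth muscle and pericyte markers summed to 107463 to 115873 in BCAA-free TAC hearts, 75526 to 103379 in control diet TAC hearts, 120224 to 127689 in BCAA-free sham hearts and 119929 to 127608 in control diet sham hearts. The sums for resting fibroblasts, for cardiomyocytes and for smooth muscle and pericytes were thus lower in all 3 control diet TAC libraries than in every other library. Single markers could run against the sum: the cardiomyocyte markers Actc1, Mybpc3 and Tnnc1 were higher in each control diet TAC library than in any control diet sham library. With TAC on the control diet 2 of 11 cardiomyocyte markers fell in limma, and 2 of 8 smooth muscle and pericyte markers fell and 2 rose. With TAC on the BCAA-free diet 4 cardiomyocyte markers rose and 2 fell, and in TAC hearts 6 were higher on that diet. None of the cardiomyocyte, smooth muscle and pericyte, activated fibroblast, macrophage or resting fibroblast markers was at 0 in any library, but 1 atrial marker was. The part of these markers, and of the structured RNAs, in the collagen results was not tested.

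Over the 12 libraries the log2 level of Col1a1 ran most closely with those of Col1a2 (r = 0.998) and Col5a1 (r = 0.995) among the chains. The 5 genes outside the chains with the highest Pearson correlation with Col1a1, once genes averaging under 50 normalized reads were set aside, were Ssc5d (r = 0.993), Mrc2 (0.992), Adamts2 (0.992), Loxl1 (0.991) and Bgn (0.991). These values describe 12 libraries in 4 groups, which share the group differences and the size factors. The chains were held to the same minimum mean of 50 normalized reads and needed values in all 12 libraries, so the scarcest were left out. Among those kept, Col6a6 (r = -0.46), Col13a1 (r = -0.40) and Col23a1 (r = -0.59) were the chains with values below 0.

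Promoter windows were at hand for 31 of the 40 chain genes. The letters CCAAT were found on either strand (reverse complement ATTGG) in 12 of the 31 (38.7%), against 37.4% of all 32851 RefSeq windows of the same length. The letters TATAAA, with reverse complement TTTATA, were found for 4 chain genes (12.9%, against 13.6%). Those of GGGCGG, with CCGCCC as its reverse, were in 20 (64.5%, against 35.7%). The last motif searched, CAGAC with GTCTG as its reverse, was in 19 (61.3%, against 49.6%). Matches of different motifs were counted separately, whether or not they overlapped. A match describes letters in this window and says nothing of binding.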

How the data were processed

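Hearts of 4 groups of 3 libraries were profiled by RNA-seq. Per the file headers, the 4 deposited tables hold normalized counts per library (a signal, reads over size factors), log2 fold changes and p-values of the authors' own comparisons. Per the submitters' processing notes the tools were STAR 2.5.2b, Subread 1.5.2, Trimmomatic 0.36 and DESeq2, with no role or order, and the builds GRCm38 and mm10. The annotation and the use of strand are likewise not stated. Values were whole multiples of what 1 read is worth (100% within 0.0001), so whole reads were recovered, with depths of 74206246 to 110452636 per library. The deposited tables hold normalized values and not raw counts, so the main test was limma 3.58.1 (R 4.3.3) on log2(value + 1) in each table, with a mean of at least 10 and Benjamini-Hochberg adjustment over all genes tested. The levels printed used size factors set over all 12 libraries, so a ratio of levels can differ from a fold change. The difference of the TAC responses used the deposited values of TAC and sham hearts, with size factors set separately for each diet. EdgeR 4.0.16, DESeq2 1.42.0 (both on recovered reads), TMM factors, 1 joint fit, pseudocounts of 0.5 and 5, no filter, a mean of at least 50, a replicate block and leaving out each library were alternatives. Scripts were tested on simulated data. All chain genes were accounted for by class, with the main chains of each class and those called named in full. From the lists of genes that act on collagen, values were given for at most 3 genes of smallest p. The members and lists were chosen with earlier results of these data known. Counting error and the spread of 3 libraries limit precision.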

Additional observations from a re-analysis of the deposited data

Results flagged for a closer look

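For 5 chains the test of the difference between the TAC responses on the 2 diets passed (limma, adjusted p below 0.05), with a smaller response on the BCAA-free diet in each. The difference on the log2 scale was -2.73 for Col8a2, -2.69 for Col9a2, -1.85 for Col12a1, -1.39 for Col8a1 and -1.31 for Col16a1. None of these calls held in every fit without 1 library.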

How the results depend on the processing

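The number of chains called stayed within 1.5 times under all alternatives with TAC on the control diet (16 to 27 without 1 library) and diet in TAC hearts (20 to 31 without 1 library). With TAC on the BCAA-free diet it was 9, and 15 by edgeR, 17 by DESeq2 and 4 to 19 without 1 library. With diet in sham hearts it was 11, and 1 in the joint fit, 18 by DESeq2 and 3 to 17 without 1 library. For the difference of the TAC responses it was 5, and 11 by DESeq2 and 0 to 19 without 1 library. The cause of these shifts was not tested.

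Replicate numbers are shared by the 4 groups, but same-numbered libraries did not deviate together (correlations of -0.17 to 0.03 over 12 pairs), so the main fits did not pair them. Differently numbered libraries were not correlated beside them, so these values do not show that no batch was shared. With the replicate block 22 chains were called with TAC on the control diet, 5 with TAC on the BCAA-free diet, 7 with diet in sham hearts, 23 with diet in TAC hearts and 2 for the difference.

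Directions turned for a few values near 0. Col4a3 with TAC on the control diet was 0.012 by edgeR and 0.035 by DESeq2, and -0.22 to 0.30 without 1 library. Col13a1 for diet in TAC hearts was -0.0019 in the joint fit and -0.084 to 0.071 without 1 library, and for diet in sham hearts -0.022 to 0.35. Col23a1 was -0.21 to 0.022 with TAC on the BCAA-free diet and -0.12 to 0.030 for diet in sham hearts. Col6a6 for diet in TAC hearts was -0.079 to 0.56. For the difference, Col4a3 was -0.12 to 0.40, Col4a4 -0.14 to 0.056 and Col13a1 -0.35 to 0.022.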
